A study of Homo sapiens with 12 samples.

Results

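PLIN2 and 9 further genes of lipid droplets, triglycerides and acyl-CoA were followed in cells labelled U251P and U251T, treated with carmofur or with vehicle. The 10 genes are the droplet coat genes PLIN2 and PLIN3, the lipolysis genes PNPLA2 and HILPDA, the triglyceride synthesis genes DGAT1 and DGAT2, the acyl-CoA synthetase genes ACSL3 and ACSL4, the carnitine shuttle gene CPT1A and the secreted lipase inhibitor gene ANGPTL4. Each was matched by its symbol to 1 of the 60107 Ensembl gene identifiers of the count table, and all 12 libraries were used. The genes were chosen by the carmofur difference of PLIN2 and by its few counts in U251P, so its carmofur values are a description and carry no test. The other 9 genes came with it as a set, which was chosen with earlier results of these data known.

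U251 is an established human glioblastoma line, and the labels name 2 lines, U251P and U251T, without saying what P and T stand for. Each line had 3 libraries from cells given DMSO as vehicle and 3 from cells given carmofur, an inhibitor of acid ceramidase. All cells were serum starved for 16 h and then held for 24 h in full medium with DMSO or carmofur, as the labels give it, while the methods of the study place carmofur in the starvation period as well. The dose was 5 µM. Per the labels, all cells were grown in 1 medium with 10% serum, a B27 equivalent, epidermal growth factor and basic fibroblast growth factor, whereas the methods of the study describe serum and growth factors as separate media. The methods of the study describe its experiments as done in biological triplicate, while the labels give a replicate number alone, and p-values measure the spread between these libraries. RNA was measured by QuantSeq, which reads the 3′ end of transcripts. Such counts do not scale with transcript length, so levels relative to the library total (CPM, the usual scaling of the count of a gene by the total of its library) are set side by side between genes as they stand.

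Lipid droplets are stores of triglycerides and sterol esters in a single layer of phospholipid, and perilipins coat their surface. DGAT enzymes add the last acyl chain to a triglyceride, acyl-CoA synthetases activate the fatty acids for this step, and lipases such as the product of PNPLA2 release them again. Released acyl chains can enter mitochondria through the carnitine shuttle and be oxidized. Droplets are known in glioblastoma as a store of lipid and as a guard against free fatty acids.

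The libraries of U251T stood apart from those of U251P. Totals were 3295045 to 6350873 counts in U251P and 383633 to 2817379 in U251T. Pseudogenes held 0.272% to 0.307% of the counts in U251P and 10.8% to 12.4% in U251T. Of the glioma and astrocyte markers, VIM, CD44 and SOX9 were well read in both lines, with CD44 at 917 to 1104 CPM in U251P and 554 to 805 CPM in U251T and SOX9 at 108 to 157 and 119 to 209 CPM. In contrast, SOX2 had 0 or 1 counts, NES 0 to 2 and EGFR 3 to 7 per U251T library. GFAP had 8 to 154 counts per U251T library and 0 or 1 in U251P. B2M, a gene used by nearly all cells, had 5655 to 12332 counts per U251P library and 1 to 7 per U251T library. Of 27 genes used in every cell, 27 had at least 10 counts in every U251P library and 19 in every U251T library, and their summed level was 11181 to 13261 CPM against 4588 to 4848 CPM. The fibroblast and pericyte list summed to 27.0 to 32.0 CPM in U251P and 2010 to 2881 CPM in U251T, where 7 of its 8 genes had more than 3 counts. Of 9 adipocyte and hepatocyte markers, 8 were at 0 counts in U251T, ADIPOQ, PLIN1 and ALB among them. The other was FABP4, a fatty acid carrier of adipocytes, with 6 to 47 counts per U251T library (10.6 to 18.5 CPM) and 0 to 2 per U251P library. The glioma markers of U251T were thus mixed, and SOX2, NES and B2M near 0 go against a human glioma cell like U251P. Whether the U251T reads all came from human transcripts was not tested. A count near 0 in U251T, as for PLIN3, PNPLA2, HILPDA and CPT1A, thus says that few reads were assigned to the human gene and not that the gene was silent. The differences between the lines, and the levels and order of genes within U251T, are likewise those of reads assigned to the human genes. The part of these markers in the values of U251T and in the differences between the lines was not tested. The libraries are bulk samples, so fewer cells of a type and less RNA per cell cannot be told apart.

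PLIN2 and ACSL3 are the 2 genes on which the carmofur results turn, and the 250 bases before 1 RefSeq transcript start of each are shown for that reason (GRCh38.p14). Windows were found for 7 of the 10 genes. A GENCODE transcript starts within 2 bases of this PLIN2 start and within 10 of that of ACSL3. The PLIN2 window lies inside the longer GENCODE span of its gene, and the ACSL3 window holds the first base of its span. The PLIN2 window is chr9:19127493-19127742 on the minus strand, and the ACSL3 window is chr2:222860786-222861035 on the plus strand. Each is written 5′ to 3′ on the strand of the gene, with motif matches in capitals.
PLIN2: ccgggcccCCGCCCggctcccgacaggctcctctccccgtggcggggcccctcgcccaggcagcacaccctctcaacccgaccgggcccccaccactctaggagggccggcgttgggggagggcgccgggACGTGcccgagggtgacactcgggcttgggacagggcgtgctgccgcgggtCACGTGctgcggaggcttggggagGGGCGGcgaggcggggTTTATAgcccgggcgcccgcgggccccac
ACSL3: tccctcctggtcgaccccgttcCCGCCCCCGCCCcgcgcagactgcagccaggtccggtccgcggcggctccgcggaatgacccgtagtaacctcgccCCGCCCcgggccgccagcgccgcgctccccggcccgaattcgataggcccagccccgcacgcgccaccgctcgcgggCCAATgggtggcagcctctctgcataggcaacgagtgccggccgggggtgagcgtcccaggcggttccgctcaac
The capitals mark matches to 6 motifs searched on both strands. The first was AGGTCA, known as a half-site of nuclear receptors such as the PPAR family. The second was ACGTG, a common spelling of the core of the hypoxia response element and the only spelling of it searched. The others were the GC box, spelled GGGCGG, then the box known as CCAAT from its own letters, then the TATA box in its common spelling of TATAAA, and last the sterol response element, searched here as TCACNCCAC with any base at N. The PLIN2 window held ACGTG at positions -120, -69 and -68 from the start, the last 2 being the overlapping strands of 1 palindrome, and ACGTG is found in 18.5% of all 35116 windows of this length. It also held TATAAA on the opposite strand at -29 (10.7% of all windows) and 2 GC boxes (42.6%). The window of ANGPTL4 held ACGTG and TATAAA as well, with 1 match each. The ACSL3 window held 3 GC boxes and CCAAT at -75 (32.0%), and neither ACGTG nor TATAAA. Other spellings of the hypoxia element core were not searched in either window. The half-site AGGTCA (12.1% of all windows) and the sterol response element (0.88%) were in neither window and in that of PNPLA2. Matches to letters are a description and mark no bound site.

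**Figure D1:**
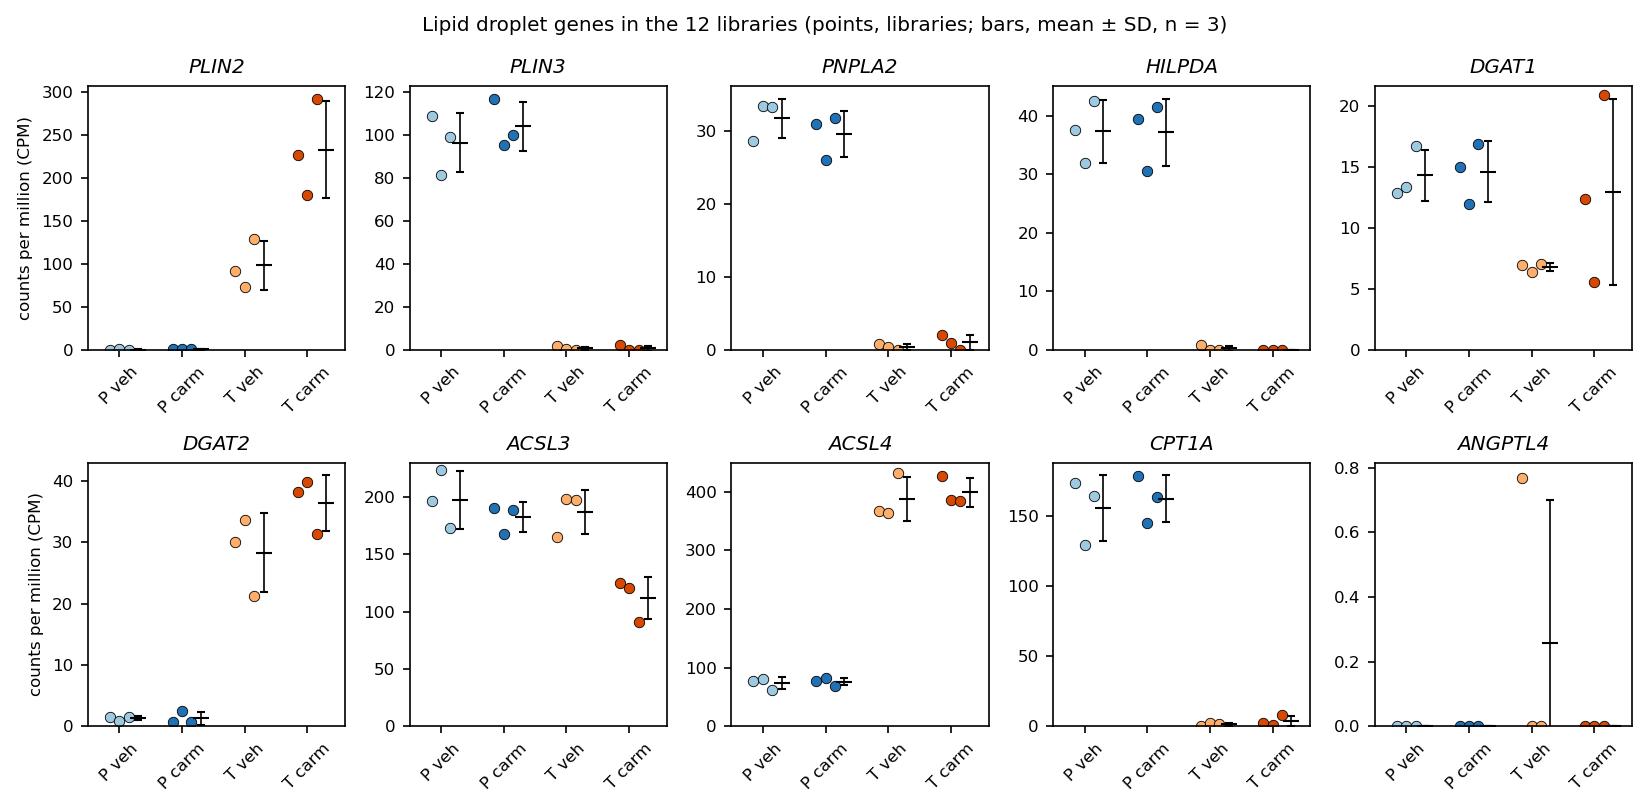
Level of each gene in CPM (linear axes that start at 0 and differ between panels) in the 12 libraries, by line (P, U251P; T, U251T) and treatment (veh, vehicle; carm, carmofur). Points are libraries and bars are the mean ± SD of 3; PLIN2 was near 0 in U251P and highest in U251T with carmofur, while PLIN3, PNPLA2, HILPDA and CPT1A were near 0 in U251T.

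PLIN2 (ENSG00000147872, chr9:19108375-19149290, minus strand), the coat protein of droplets in most cells, was nearly unread in U251P and well read in U251T. Its counts in U251P were 0, 1 and 1 in the vehicle libraries and 2, 2 and 3 in the carmofur libraries. In U251T the level was 91.5, 73.5 and 129 CPM with vehicle and 226, 180 and 292 CPM with carmofur, from 73 to 207 and 112 to 219 counts. All carmofur libraries of U251T thus lay above all vehicle libraries. The group means were 98.0 ± 28.3 and 233 ± 56.3 CPM (SD, n = 3), and the fitted log2 fold change was 1.28 (SE 0.203), a 2.42-fold higher level. Over the 14 alternatives the log2 fold change was 1.09 to 1.44. The carmofur libraries of U251P also lay above the vehicle libraries, from summed counts of 2 and 7, a ratio of 2.90 with a 95% interval of 0.552 to 28.6 for counting error only. Its mean level was above that of 19.3% of the genes with a count in U251P with vehicle and of 86.5% in U251T with vehicle.

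PLIN3 (ENSG00000105355), a coat protein that moves between cytosol and young droplets, had the opposite distribution. In U251P it stood at 109, 81.6 and 99.0 CPM with vehicle and 117, 95.4 and 99.9 CPM with carmofur, and the groups overlapped. The log2 fold change was 0.13 (SE 0.121, adjusted p = 0.999, edgeR). The U251T vehicle libraries held 2, 1 and 0 counts and the carmofur libraries 2, 0 and 0, too few for a comparison. The coat gene with many counts was therefore PLIN3 in U251P and PLIN2 in U251T.

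Among the lipolysis genes, PNPLA2, which encodes the lipase of the first step of triglyceride breakdown, was at 28.6 to 33.4 CPM with vehicle and 26.0 to 31.8 CPM with carmofur in U251P. HILPDA, whose product inhibits that lipase, was at 31.9 to 42.6 CPM with vehicle and 30.6 to 41.5 CPM with carmofur. Both overlapped between the treatments, with log2 fold changes of -0.08 (SE 0.147) for PNPLA2 and 0.00053 (SE 0.160) for HILPDA. In U251T, PNPLA2 had 2 counts in all with vehicle and 3 with carmofur, and HILPDA 1 and 0. Their response to carmofur was not measurable in U251T.

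DGAT1 and DGAT2 encode unrelated enzymes for the same last step of triglyceride synthesis. DGAT1 was at 14.3 ± 2.11 CPM with vehicle and 14.6 ± 2.50 CPM with carmofur in U251P (SD, n = 3). The fitted log2 fold change was 0.03 (SE 0.204). In U251T, DGAT1 had 9, 18 and 4 counts in the vehicle libraries and 12, 6 and 8 in the carmofur libraries, which did not pass the filter on low counts, and the ratio of the summed levels was 1.62 with a 95% counting interval of 0.921 to 2.81. DGAT2 had 3 to 15 counts per U251P library and was not tested there. In U251T, DGAT2 stood at 30.0, 33.7 and 21.2 CPM with vehicle and 38.2, 39.9 and 31.3 CPM with carmofur. These groups overlapped, and the log2 fold change was 0.31 (SE 0.268, 95% interval -0.25 to 0.88, adjusted p = 0.487, edgeR).

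ACSL3, the acyl-CoA synthetase of the endoplasmic reticulum and of young droplets, fell with carmofur in U251T. It stood at 165, 199 and 198 CPM with vehicle and 125, 121 and 91.2 CPM with carmofur, from 35 to 560 counts, so that all carmofur libraries lay below all vehicle libraries. The log2 fold change was -0.71 (SE 0.171, adjusted p = 0.00704, edgeR), that is 0.610 of the vehicle level. Over the alternatives it was -0.82 to -0.61 with an adjusted p of 2.12e-05 to 0.0373. In U251P, ACSL3 (ENSG00000123983, chr2:222860934-222944639, plus strand) was at 196, 224 and 173 CPM with vehicle and 191, 168 and 189 CPM with carmofur, overlapping, with a log2 fold change of -0.08 (SE 0.105, 95% interval -0.31 to 0.14). The difference between the lines in this response was -0.68 on the log2 scale (SE 0.238) and did not pass the test (adjusted p = 0.111, edgeR). It passed in 4 of 19 alternatives, where the adjusted p was 0.0274 to 0.0461, and elsewhere it reached at most 0.279.

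ACSL4, a synthetase that prefers arachidonic acid and related chains, had the highest CPM of the members in U251T. It was at 367, 363 and 431 CPM with vehicle and 427, 386 and 383 CPM with carmofur, and the groups overlapped. The log2 fold change was 0.05 (SE 0.131, 95% interval -0.23 to 0.32, adjusted p = 0.849, edgeR). In U251P it was at 61.4 to 81.0 CPM with vehicle and 69.2 to 81.8 CPM with carmofur. The log2 fold change there was 0.09 (SE 0.123).

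CPT1A, which encodes the enzyme that links acyl chains to carnitine at the outer mitochondrial membrane, was at 174, 130 and 165 CPM with vehicle and 179, 145 and 164 CPM with carmofur in U251P, overlapping (log2 fold change 0.08, SE 0.121). In the U251T libraries it had 0, 6 and 1 counts under vehicle and 2, 1 and 3 under carmofur. ANGPTL4, which encodes a secreted inhibitor of lipoprotein lipase, had 1 count in the 12 libraries, in U251T with vehicle. In the groups at 0 counts, the floor of 3 counts allows a level of up to 0.182 to 0.220 CPM in U251P and 1.23 CPM in U251T with carmofur, for counting error only. The 1 count in U251T with vehicle was 0.769 CPM in its library.

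**Figure D2:**
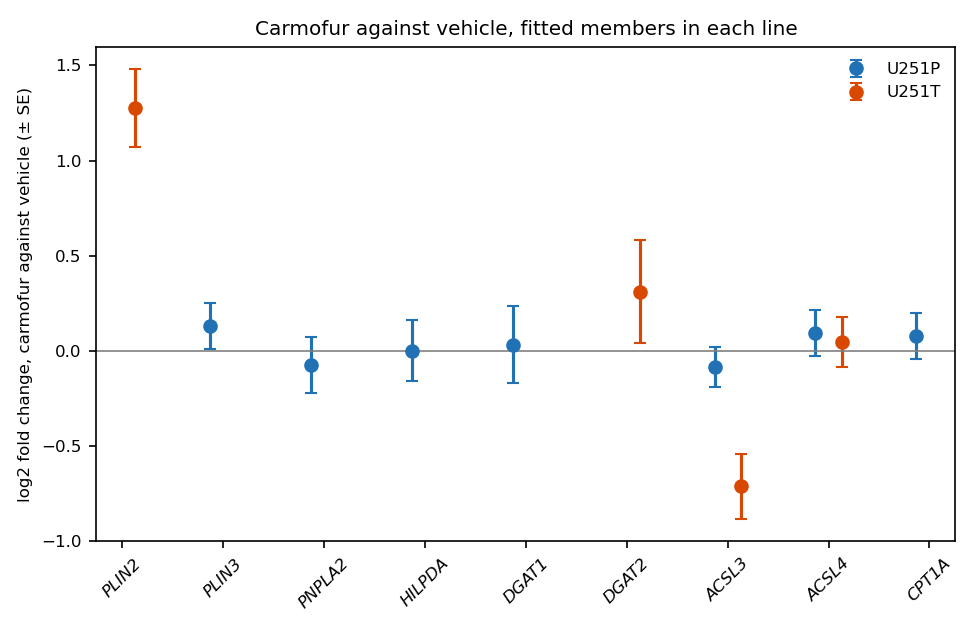
Log2 fold change of carmofur against vehicle (vertical axis) with its SE, for each gene that passed the filter on low counts, in U251P (blue) and U251T (orange). In U251P the 7 values lie between -0.08 and 0.13, and in U251T PLIN2 lies at 1.28, ACSL3 at -0.71, DGAT2 at 0.31 and ACSL4 at 0.05.

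Over all genes, the edgeR test called 0 of 11426 genes in U251P (0% called), with 402 genes at an unadjusted p under 0.05, and DESeq2 called 0 as well. Of the 10 genes followed here, 7 could be tested in U251P and 0 were called. Groups did not overlap for 8.54% of the genes tested, and for none of these 7. In U251T, 1231 of 7204 genes were called (17.1%), 640 of them higher (8.88%) and 591 lower (8.2%), and the groups did not overlap for 32.3%. With the replicate number as a block, 2079 genes were called. Of the 10 genes, 4 could be tested in U251T: PLIN2, which the choice of genes rests on, ACSL3, which was called lower, and DGAT2 and ACSL4, which were not called. Beside these values, the summed level of the glioma and astrocyte list, mostly VIM, was 11835 to 14331 CPM with vehicle and 8038 to 10082 CPM with carmofur in U251T. That of the fibroblast and pericyte list, mostly COL1A1, was 2010 to 2325 CPM and 2687 to 2881 CPM. COL1A1 was at 1282 to 1565 and then 1877 to 1929 CPM, and COL3A1 and ACTA2 were also higher without overlap. COL1A2, at 442 to 446 and then 370 to 445 CPM, and PDGFRB were not higher. Within the glioma list VIM went from 11009 to 13534 CPM down to 7046 to 9016 CPM, while CD44 was at 554 to 628 and then 723 to 805 CPM and SOX9 at 119 to 148 and then 188 to 209 CPM. Their part in the PLIN2 and ACSL3 values was not tested. For the difference of the carmofur response between the lines, 4.28% of 13070 genes were called. Beside PLIN2, 8 of the 10 genes were tested, with 0 called, but only DGAT1, DGAT2, ACSL3, ACSL4 and CPT1A had more than 3 counts in each of the 4 groups.

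The lines differed in most of the genes in vehicle. PLIN2 was also chosen by its few counts in U251P, so its difference between the lines is a description as well. PLIN2, DGAT2 and ACSL4 were higher in U251T, PLIN3, PNPLA2, HILPDA, CPT1A and DGAT1 were higher in U251P, and ACSL3 did not differ beyond the spread. Of the 8 genes tested beside PLIN2, 2 were called higher and 5 lower in U251T, while 86.9% of 12047 genes were called, 39.3% higher and 47.6% lower, and 86.8% did not overlap. The share of the 8 genes called, 7 of 8, is near the background. The median log2 fold change over all genes was -0.33, and values are to be read against it.

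PLIN2, PLIN3, HILPDA, PNPLA2 and CPT1A each had few counts in 1 of the lines. They are given as ratios of summed levels with 95% counting intervals, since the fitted fold of such a gene depends on the prior count. PLIN2 was 580 times higher in U251T (160 to 4808). In U251P, PLIN3 was 154 times higher (52.5 to 746), PNPLA2 73.9 times (20.3 to 612) and HILPDA 178 times (31.9 to 7062), each with an adjusted p of 6.90e-12 or less (edgeR). CPT1A was 107 times higher in U251P (51.7 to 266). With carmofur, HILPDA was at 0 counts in U251T, and the 95% counting interval of the ratio starts at 24.1-fold higher in U251P.

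The synthesis genes differed in both directions. DGAT2 was at 1.34 ± 0.370 CPM in U251P and 28.3 ± 6.43 CPM in U251T with vehicle (SD, n = 3), a log2 fold change of 4.35 (SE 0.372, adjusted p = 8.28e-12, edgeR). DGAT1 was at 14.3 ± 2.11 and 6.79 ± 0.356 CPM, a log2 fold change of -1.14 (SE 0.348, adjusted p = 0.00347, edgeR). In the 6 carmofur libraries DGAT1 did not pass the test (log2 fold change -0.65, adjusted p = 0.0917). ACSL4 was at 73.3 ± 10.5 and 387 ± 37.9 CPM, a log2 fold change of 2.36 (SE 0.144, adjusted p = 3.78e-15, edgeR). ACSL3 was at 198 ± 25.2 and 187 ± 19.1 CPM, a log2 fold change of -0.11 (SE 0.142, 95% interval -0.40 to 0.18, adjusted p = 0.470, edgeR), and it passed the test as lower in U251T in 3 alternatives, with -0.47 when no filter was used, -0.75 over genes with at least 10 counts in every library and -0.91 in the carmofur libraries.

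**Figure D3:**
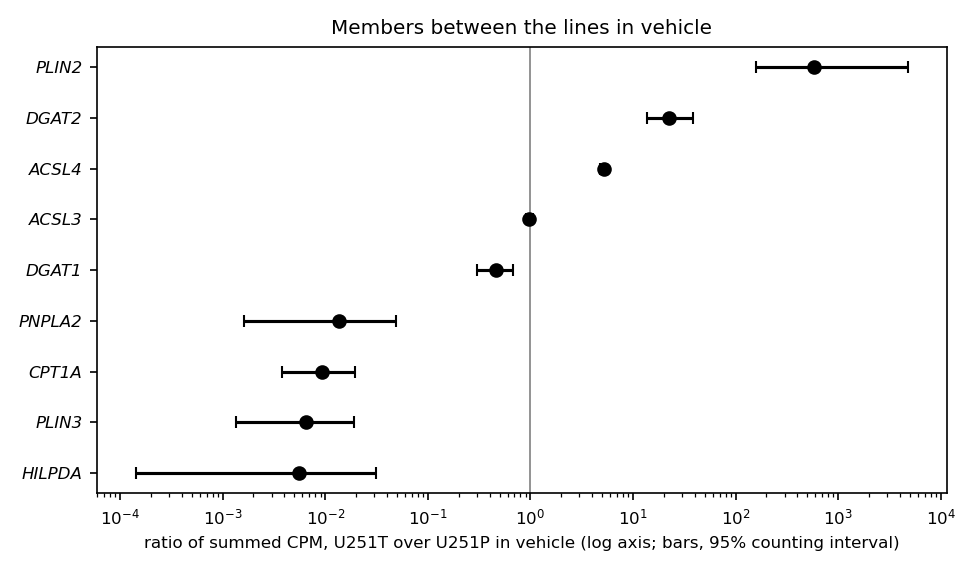
Ratio of the summed CPM of the 3 vehicle libraries, U251T over U251P (log axis), for the 9 genes with counts in both lines and more than 3 in at least 1. Bars are 95% counting intervals, which leave out the spread between libraries; PLIN2 lies at 580, ACSL3 at 0.976 and HILPDA lowest.

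By mean CPM in U251P with vehicle the order was ACSL3, CPT1A, PLIN3, ACSL4, HILPDA, PNPLA2, DGAT1, DGAT2 and PLIN2, and ANGPTL4 was at 0. The CPM ranges of ACSL3 and CPT1A overlapped, as did those of HILPDA and PNPLA2, and each other step was clear of its neighbour. The step from PLIN3 to ACSL4 was the narrowest, with the closest libraries at 81.6 and 81.0 CPM. In U251T with vehicle the order was ACSL4, ACSL3, PLIN2, DGAT2 and DGAT1, each clear of its neighbour, followed by genes at or near the floor. For U251T this is an order of reads assigned to the human genes, since the origin of the reads was not tested. With carmofur the order of the first 3 in U251T became ACSL4, PLIN2 and ACSL3.

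The wider pathway was read through 8 lists that hold 111 genes apart from the 10. In U251P, 70 of them were tested and 0 called, with a median log2 fold change of -0.08 against -0.00075 over all genes. In U251T, 37 were tested, 9 were called higher and 0 lower, where 8.88% and 8.2% of all genes tested were, with a median of 0.25 against 0.0095 over all genes. The count fell to 5 when all 12 libraries were fitted together. The lists were chosen with earlier results of these data known, so these counts are a description. The adjusted p-values of the genes named from the lists are over all genes and are no independent support for the lists.

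Lipoprotein uptake and hypoxia-inducible genes held most of the calls in U251T. VLDLR, a receptor for triglyceride-rich lipoproteins, was at 52.3, 49.3 and 67.1 CPM with vehicle and 163, 134 and 162 CPM with carmofur, a log2 fold change of 1.47 (SE 0.186, adjusted p = 2.77e-05, edgeR). LRP1, a large receptor of the same family, was at 90.7, 71.7 and 132 CPM with vehicle and 217, 272 and 248 CPM with carmofur, a log2 fold change of 1.39 (SE 0.193, adjusted p = 6.32e-05, edgeR). These were the 2 genes tested of the 12 of their list. Neither pair of groups overlapped, as for 32.3% of all genes tested.

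Of the 16 hypoxia-inducible genes, 12 were tested in U251T and 5 were called higher, where 8.88% of all genes tested were. NDRG1, a stress response gene, rose from 8.83 to 17.0 CPM with vehicle to 49.5 to 67.8 CPM with carmofur, a log2 fold change of 1.92 (SE 0.288, adjusted p = 0.000131, edgeR). Its counts were low, at 5 to 48 per library with vehicle and 26 to 59 with carmofur. BNIP3L, a receptor for the removal of mitochondria, rose by 1.61 (SE 0.241), SLC2A1, the glucose transporter GLUT1, by 1.24 (SE 0.208) and DDIT4, an inhibitor of mTORC1, by 1.62 (SE 0.289). Each had no overlap between the groups, as had 32.3% of all genes tested. DDIT4 did not pass the test when all 12 libraries were fitted together (adjusted p = 0.102). HILPDA, a gene of this kind among the 10, had 1 count in the U251T libraries. In U251P, 0 of the 15 genes of this list tested were called, and 13 of them were below 0 with a median of -0.31. The U251P libraries were spread within both treatments, with DDIT4 at 45.5 to 483 CPM and VEGFA at 89.7 to 224 CPM with carmofur and 98.7 to 307 CPM with vehicle.

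Of the other lists, triglyceride and sterol ester synthesis had 5 genes tested in U251T, DGAT2 among them, and 2 called higher. LPIN2, a phosphatidate phosphatase, rose by 0.54 (SE 0.143, adjusted p = 0.0133, edgeR), and AGPAT3, an acyltransferase, by 0.62 (SE 0.201, adjusted p = 0.0413, edgeR). AGPAT3 did not pass the test in 8 of 14 alternatives, with an adjusted p of up to 0.222, among them those without any 1 of the 3 carmofur libraries or of vehicle replicates 1 and 3. LPIN2 did not pass in 4, with up to 0.0974, among them those without carmofur replicate 1 or vehicle replicate 1. In the droplet coat and assembly list 0 of the 3 genes tested beside PLIN2 were called. In the acyl-CoA synthetase and fatty acid carrier list ACSL3 was the 1 of 7, and in the carnitine shuttle and beta-oxidation list 0 of 7 were called. Lipolysis had 1 gene tested and PPAR and RXR receptors 3, with 0 called in each.

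**Figure D4:**
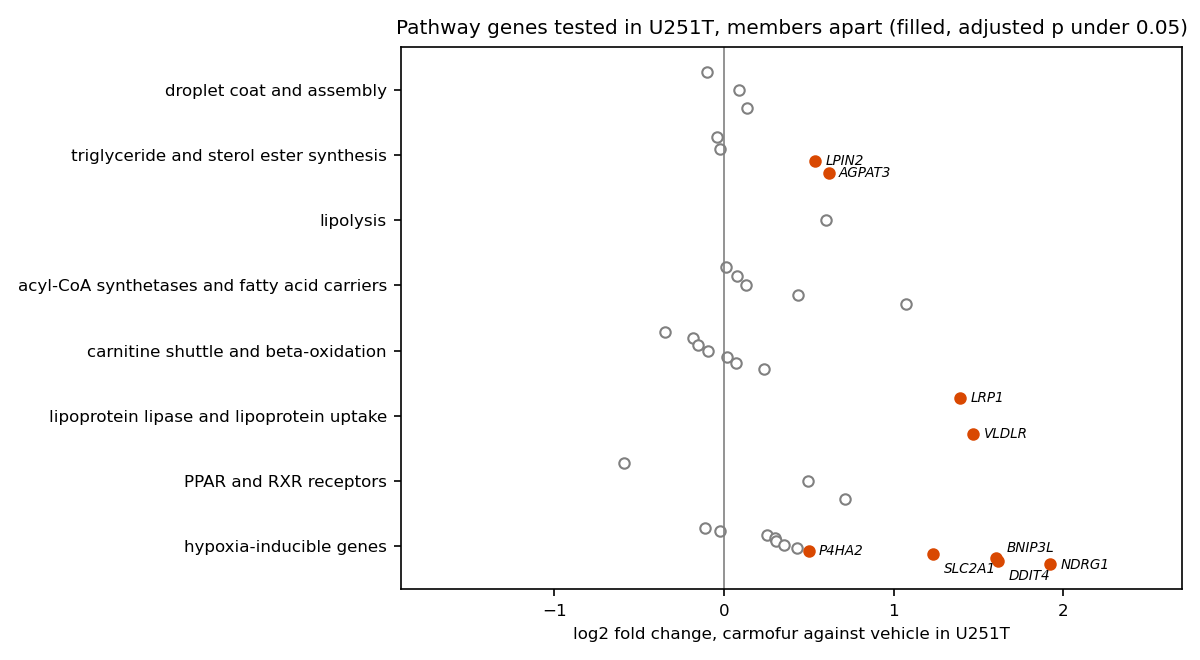
Log2 fold change of carmofur against vehicle in U251T (horizontal axis) for the pathway genes that passed the filter on low counts, the 10 genes apart, by list. Filled points passed an adjusted p of 0.05 and are named; they run from P4HA2 at 0.50 to NDRG1 at 1.92, and 0 genes passed on the lower side.

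Between the lines in vehicle, 68 of these 111 genes were tested, 19 called higher and 41 lower in U251T, with a median log2 fold change of -1.43 against -0.33 over all genes. With 86.9% of all genes called, 39.3% higher and 47.6% lower, the number called is near the background. In the acyl-CoA synthetase list ACSL1, a synthetase of triglyceride-storing tissues, was higher in U251T, with 36 counts in U251P and 884 in U251T. DBI, an acyl-CoA binding protein, was lower, with 3160 and 33. In lipolysis, LIPA, the lysosomal acid lipase, had 160 and 1 counts, and MGLL, the monoglyceride lipase, 58 and 0. Of the fatty acid oxidation genes, ACADL had 3 and 699 counts and ECHS1, an enoyl-CoA hydratase, 3183 and 69. FITM2, which helps droplets form, had 68 and 256 counts and RAB18, a droplet GTPase, 413 and 332. In synthesis, LPIN2 had 396 and 779 and GPAT3 857 and 21. The scavenger receptor gene SCARB1 had 648 and 1 counts and LRP1 16 and 395. RXRA, a partner of the PPAR receptors, had 444 and 0, and the coactivator gene PPARGC1B 42 and 250. In the hypoxia list BNIP3 had 2579 and 29 and P4HA2 443 and 866. All counts here are sums over the 3 vehicle libraries of U251P and then of U251T, whose totals were 13623194 and 4684167, so that RAB18 was higher per count in U251T. All 16 genes named were called by edgeR, 8 higher and 8 lower in U251T.

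The 5 genes whose levels ran most like those of PLIN2 were NDUFAF6, PAM, ADCY6, FAT1 and MYO5A. Likeness was Pearson's r of the log2 CPM deviations from the mean of each line over the 12 libraries, among 5870 genes, and was 0.931, 0.923, 0.917, 0.906 and 0.901 in that order. In the 6 U251T libraries alone it was 0.966 to 0.991. These points share the carmofur groups and the library depths, so r is a description. PLIN2 had 0 to 3 counts in each U251P library, so its deviations in that line rest on few reads. ACSL3 had an r of -0.81 with PLIN2 and ACSL4 an r of 0.01.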

How the data were processed

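RNA of 12 libraries was measured by 3′ sequencing (QuantSeq FWD, single-end reads of 75 bases). The authors trimmed and mapped the reads with Lexogen's BlueBee pipeline, on hg38 per the labels, and deposited whole-number read counts per Ensembl gene without normalization. The counter, annotation release, use of strand and treatment of PCR copies are not given in the sources used here. Symbols were matched to GENCODE 29 (GRCh38), and coordinates are from it or, for promoter windows, from RefSeq. Each comparison was fitted over all genes with the quasi-likelihood test of edgeR 4.0.16 in R 4.3.3 (TMM, filterByExpr, Benjamini-Hochberg adjustment, threshold 0.05), and DESeq2 1.42.0 was an alternative. SE is the log2 fold change over the root of F. Steps were tested on simulated data. Figures used Python 3.11.15, pandas 2.3.3 and matplotlib 3.10.9.

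The 10 genes and the lists were chosen with earlier results of these data known. From each list, up to 4 called genes per comparison were named by smallest p (2 between the lines), and the 5 genes most like PLIN2 were named by r with a prior count of 2. In U251T, libraries with the same replicate number deviated together (correlations of 0.150, 0.462 and 0.226 over 4766 genes), so the numbers may pair them, from the data alone. Replicates 1 and 3 of opposite treatments also correlated, at 0.116 and 0.121. Replicate 3 had the lowest total in both U251T groups, and the part of depth in these correlations was not tested. The main fits leave this pairing out, and the replicate block is an alternative. Exact permutation of 3 against 3 libraries cannot reach 0.05, so p-values come from the fits.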

Additional observations from a re-analysis of the deposited data

Results flagged for a closer look

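The response to carmofur differed between the lines for 5 genes of the pathway lists, by the edgeR test of the interaction over all 12 libraries. The difference of the log2 fold change, U251T less U251P, was 1.87 for VLDLR (SE 0.280, adjusted p = 2.21e-05, edgeR), 1.90 for BNIP3L (SE 0.335, adjusted p = 0.000262, edgeR) and 2.24 for NDRG1 (SE 0.408, adjusted p = 0.000388, edgeR). It was 1.29 for SLC2A1 (SE 0.258, adjusted p = 0.00131, edgeR) and 2.60 for DDIT4 (SE 0.754, adjusted p = 0.0399, edgeR). DDIT4 did not pass in 10 of 19 alternatives. Of the 73 pathway genes tested 5 were called, where 4.28% of all genes were. The lists were chosen with earlier results of these data known, so these values are a description. Of the 15 hypoxia-inducible genes tested, 15 had a difference above 0, as had 48.8% of all genes. Among them, CA9 had 0 or 1 counts per U251T library and ADM 0 to 4, so the signs of these genes rest on few reads. The U251P side rests on libraries that were spread within both treatments, with DDIT4 at 45.5 to 320 CPM with carmofur and 70.1 to 483 CPM with vehicle.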

How the results depend on the processing

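In U251P the count of called genes was 19 without a filter on low counts, 1 with the replicate block, and 0 to 1 with a library left out. In U251T the replicate block gave 2079 called genes, and leaving out a library gave 835 to 1196. For the interaction, leaving out a library gave 366 (without U251T carmofur replicate 1) to 719, and the replicate block 792. Between the lines, 3737 genes were called over those with at least 10 counts in every library. In U251P same-numbered libraries correlated at 0.264, 0.0026 and 0.322, so that 1 pair did not pass 0.1 and the numbers were not taken to pair the libraries there. The replicate block changed no other call among the members than that of ACSL3 in the interaction (-0.69, adjusted p = 0.0461, edgeR), which also passed with DESeq2, with at least 10 counts in every library and over protein-coding genes alone.

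Values that were near 0 or had a large SE changed sign, all far from the threshold. With a library left out, the log2 fold change in U251P ranged from -0.10 to 0.13 for HILPDA, -0.078 to 0.19 for DGAT1, -0.044 to 0.15 for CPT1A and -0.0040 to 0.16 for ACSL4. HILPDA was also -0.020 with library totals in place of TMM. In U251T, ACSL4 was -0.030 without a filter, -0.00055 with all 12 libraries fitted together and -0.0091 to 0.10 with a library left out. The interaction had a main value of 0.26 (SE 0.632) for DGAT2 and ranged from -0.15 to 1.23. For CPT1A the main value was 0.54 (SE 0.858) and the range -0.18 to 2.03. The causes were not tested. Library totals without TMM and protein-coding genes alone were chosen after seeing the data. Low counts limit PLIN2 in U251P and PLIN3, PNPLA2, HILPDA, CPT1A and ANGPTL4 in U251T.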
